A study of Mus musculus with 16 samples.

Results

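The genes described here make, load, recapture, break down and sense gamma-aminobutyric acid (GABA), the main inhibitory transmitter of the forebrain. They are 27 of the 22337 genes in the deposited table: 14 subunits of the GABA-A and rho receptor channels, 2 subunits of the GABA-B receptor, 2 synthetic enzymes, 1 vesicular and 2 plasma membrane transporters, 2 breakdown enzymes, 2 proteins of the inhibitory synapse and 2 chloride transporters. They were taken by gene identifier from a list of symbols, and all 27 were found.

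RNA came from the nucleus accumbens, the ventral part of the striatum, of C57BL/6 males. All groups share that strain and sex, and each was exposed for 4 days: to saline, to arecoline (the areca nut alkaloid, a muscarinic agonist), to caffeine (an adenosine receptor antagonist) or to nicotine (a nicotinic agonist). Each group holds 4 libraries of 9.04 to 24.32 M estimated counts. The sources used here give no ages, doses or routes and do not say whether a group's libraries are separate animals. The p-values therefore rest on library-to-library spread, part of which may be technical.

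GABA is made from glutamate by glutamate decarboxylase, packed into vesicles by the product of Slc32a1, taken up again by transporters of neurons and glia, and degraded by GABA transaminase and succinic semialdehyde dehydrogenase. GABA-A receptors are pentameric chloride channels whose subunit mix sets their place and kinetics, while the GABA-B receptor is a G protein-coupled pair of subunits. Medium spiny neurons, the principal cells of the accumbens, are themselves GABAergic, so the synthetic genes are also markers of the tissue's main neurons.

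Levels are CPM, that is, counts per M of library total after TMM scaling, unless FPKM, the authors' value per transcript length, is named, and genes are compared with each other only per length, in FPKM or in CPM per kb of merged exon. Of the 27 genes, 24 passed the filter on low counts and were tested, with 14674 genes in all. A gene was called at a Benjamini-Hochberg adjusted p under 0.05 in edgeR's quasi-likelihood test over all of them. Libraries of a group differed in composition, and the 12 medium spiny neuron markers summed to 9117 CPM in saline replicate 3, 6889 in arecoline replicate 2 and 9205 in arecoline replicate 3. The other saline libraries held 1959 to 2305 CPM, arecoline replicates 1 and 4 held 605 and 622, caffeine libraries 668 to 1911 and nicotine libraries 954 to 1455. For 11 of the 12 markers those same 3 libraries were the highest of the 16, and no marker was at 0 in any library. The highest of the 16 was nicotine replicate 2 for 5 of 6 olfactory sensory neuron markers and 7 of 7 fibroblast and meningeal markers. Results are therefore also given without these 4 libraries, which leaves 2 arecoline libraries. In such bulk RNA, fewer cells of a type and less RNA per cell cannot be told apart.

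The upstream sequences of the genes on which the results turn are shown first: Gad2 and Slc32a1, which were highest in the 3 libraries rich in medium spiny neuron markers, Gad1, which departed from them in the arecoline group, and Nlgn2, which passed the test with caffeine. Each runs 5′ to 3′ from 250 bases before to 50 bases after the RefSeq transcription start on GRCm38.p6. Capitals mark GGGCGG (the GC box core), TGACG (the cyclic AMP response element half-site) and TAATT (a homeodomain core), searched on both strands, with no matches overlapping. The windows are chr2:22622077-22622376 on the plus strand for Gad2, chr2:70561879-70562178 on the plus strand for Gad1, chr2:158610508-158610807 on the plus strand for Slc32a1 and chr11:69837735-69838034 on the minus strand for Nlgn2.
Gad2: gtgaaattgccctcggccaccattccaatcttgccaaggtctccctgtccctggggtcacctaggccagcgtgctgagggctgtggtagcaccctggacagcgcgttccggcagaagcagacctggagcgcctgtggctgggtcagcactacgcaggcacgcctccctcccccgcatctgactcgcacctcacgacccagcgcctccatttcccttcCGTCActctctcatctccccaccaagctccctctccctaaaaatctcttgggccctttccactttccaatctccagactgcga
Gad1: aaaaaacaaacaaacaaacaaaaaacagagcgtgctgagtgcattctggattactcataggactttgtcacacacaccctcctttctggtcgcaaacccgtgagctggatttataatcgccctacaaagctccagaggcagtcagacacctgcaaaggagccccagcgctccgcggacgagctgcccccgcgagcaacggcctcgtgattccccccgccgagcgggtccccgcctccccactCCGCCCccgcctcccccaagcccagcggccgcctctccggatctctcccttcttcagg
Slc32a1: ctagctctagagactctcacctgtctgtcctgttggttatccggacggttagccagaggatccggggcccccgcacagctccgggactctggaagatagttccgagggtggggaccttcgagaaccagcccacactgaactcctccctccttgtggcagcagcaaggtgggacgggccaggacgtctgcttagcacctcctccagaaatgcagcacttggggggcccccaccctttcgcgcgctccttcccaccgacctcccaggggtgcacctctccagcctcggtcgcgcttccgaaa
Nlgn2: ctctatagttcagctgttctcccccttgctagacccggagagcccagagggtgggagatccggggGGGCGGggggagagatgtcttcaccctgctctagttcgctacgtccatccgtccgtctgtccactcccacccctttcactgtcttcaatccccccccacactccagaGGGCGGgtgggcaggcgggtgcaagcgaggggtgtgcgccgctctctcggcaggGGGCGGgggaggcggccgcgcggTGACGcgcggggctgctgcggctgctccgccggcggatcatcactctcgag

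The Gad2 window held 1 TGACG, the Gad1 window 1 GGGCGG, the Nlgn2 window 3 GGGCGG and 1 TGACG, and the Slc32a1 window none of these letters. RefSeq promoter windows were matched for 24 of the 27 genes, of which 15 held GGGCGG, 5 TGACG and 7 TAATT. Over 32851 promoters of the same length the shares were 35.7%, 20.8% and 27%. The RefSeq window of Gad1 lies inside the span that GENCODE M21 gives the gene (chr2:70553072-70602014), downstream of its annotated 5′ end.

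In FPKM, the decarboxylase Gad1, the transaminase Abat and the GABA-B subunit Gabbr1 led the set. In CPM per kb of merged exon Gad1 and Abat led as well, with 56.1 and 47.8, but Gad2 (47.7) and Slc12a5 (45.3) exceeded Gabbr1 (34.4). Mean FPKM over the 16 libraries was 135 for Gad1, 82.2 for Abat, 72.3 for Gabbr1, 55.5 for Slc12a5, 52.8 for Gabra4 and 48.0 for Gad2. Gabra4 encodes the alpha subunit that pairs with the delta subunit (Gabrd, 47.1 FPKM) in extrasynaptic receptors of striatal neurons. Among other alpha subunits, Gabra5 had 23.5 FPKM, Gabra3 23.2 and Gabra2 12.4. The order of Gabra3, Gabra4 and Gabra5 was not stable, since CPM per kb of merged exon gave 21.8, 20.9 and 20.2. The beta subunits stood at 41.6 FPKM for Gabrb1 and 19.8 for Gabrb2, an order that also flipped per kb of merged exon, with 11.7 for Gabrb1 and 12.5 for Gabrb2.

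Gamma subunits were lower, with 9.96 FPKM for Gabrg1 and 5.25 for Gabrg3, and Slc12a5, the chloride extruder of mature neurons, exceeded the chloride importer Slc12a2 in every library, by 12.8 to 32.1-fold in FPKM. A group of 5 receptor genes was at the limit of detection: the cerebellar subunit Gabra6, the epsilon and theta subunits Gabre and Gabrq, and the rho subunits Gabrr1 and Gabrr2. Gabra6 had 0 counts in 11 of 16 libraries and at most 3 in any. A count of 0 allows up to 0.123 to 0.332 CPM depending on the library, for counting error only. Gabre reached at most 14 counts and Gabrr1 at most 11, and these 3 did not pass the filter. Gabrq (4 to 35 counts) and Gabrr2 (0 to 17 counts) passed it, with no call in any comparison.

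**Figure D1:**
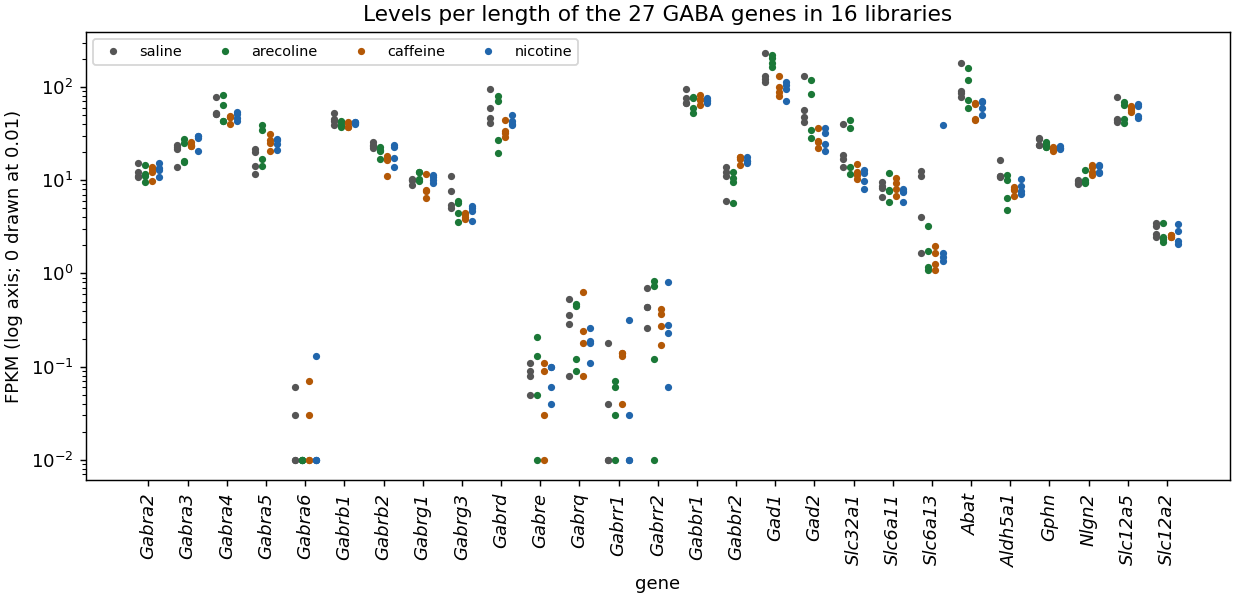
Level per length of each of the 27 genes (FPKM, log axis, with 0 drawn at 0.01); each point is 1 library, coloured by group. Gad1 has the highest mean, 135 FPKM, Gabra6, Gabre, Gabrq, Gabrr1 and Gabrr2 lie under 1 FPKM, and above 1 FPKM the widest spreads are those of Slc6a13 and Gad2.

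Gad2, the decarboxylase isoform of nerve terminals (chr2:22622205-22693874, plus strand), varied 6.36-fold over the libraries. It stood at 282, 245, 749 and 329 CPM with saline, at 198, 502, 683 and 165 with arecoline, at 133, 158, 152 and 213 with caffeine and at 148, 118, 193 and 213 with nicotine. Every caffeine and nicotine library lay below every saline library, while 2 arecoline libraries lay below the saline range and 2 inside it. The log2 fold change against saline was -1.29 ± 0.42 (SE) with caffeine, with an adjusted p of 0.081 in edgeR (0.0076 to 0.49 over 17 alternatives). With nicotine it was -1.26 ± 0.42, with an adjusted p of 0.275 in edgeR (0.1 to 0.59 over 17 alternatives). Neither passed the threshold. With a score of the medium spiny neuron markers as a covariate the caffeine value was -0.23 and the nicotine value -0.44, and without the 4 libraries they were -0.80 and -0.63, the first of which passed. In the libraries kept there, medium spiny neuron markers still summed to less with caffeine (668 to 1911 CPM) and nicotine (1129 to 1455) than with saline (1959 to 2305).

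Slc32a1, the vesicular transporter that loads GABA (chr2:158610767-158615748, plus strand), followed the same libraries. Its levels were 48.6, 39.1, 113 and 52.7 CPM with saline, 38.8, 103, 125 and 32.8 with arecoline, 29.7, 35.9, 32.2 and 42.7 with caffeine and 29.1, 22.2, 37.2 and 34.4 with nicotine. The nicotine libraries were all below the saline libraries, whereas the caffeine range overlapped with saline. The log2 fold change with nicotine was -1.04 ± 0.39 (SE), with an adjusted p of 0.318 in edgeR (0.16 to 0.68 over 17 alternatives), and the value was -0.28 given the marker score and -0.48 without the 4 libraries.

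Abat, the GABA transaminase, which starts GABA breakdown (chr16:8513429-8621568, plus strand), had 364, 377, 775 and 391 CPM with saline and 313, 549.6, 721 and 266 with arecoline. Caffeine libraries held 205, 215, 299.8 and 296 CPM and nicotine libraries 278, 224, 331 and 314, all below saline. The caffeine difference was -0.91 ± 0.30 (log2, SE), with an adjusted p of 0.083 in edgeR (0.013 to 0.52 over 17 alternatives). It was -0.22 with the marker score and -0.58 without the 4 libraries, where it passed. Medium spiny neuron markers were still lower with caffeine than with saline in the libraries kept there. Aldh5a1, the succinic semialdehyde dehydrogenase that completes the pathway, showed 64.9, 62.1, 92.3 and 61.9 CPM with saline. Its levels were 27.1, 66.3, 57.8 and 37.0 with arecoline, 46.3, 50.1, 46.1 and 39.2 with caffeine and 42.3, 42.6, 51.4 and 58.8 with nicotine. Caffeine and nicotine libraries lay below the saline range, and arecoline replicate 2 lay inside it. The arecoline difference was -0.58 ± 0.22 (log2, SE), with an adjusted p of 0.222 in edgeR (0.0055 to 0.44 over 17 alternatives), and -0.97 without the 4 libraries.

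Gad1, the decarboxylase isoform of the cell body and the larger source of GABA, was the only one of the 24 genes that differed among the 4 groups in edgeR's F test (adjusted p = 0.048), where 1.14% of all genes passed. It stood at 438, 359, 729.9 and 383 CPM with saline, at 633, 538, 694 and 579 with arecoline, at 257, 269.7, 422 and 327 with caffeine and at 316, 225, 322 and 364 with nicotine. All arecoline libraries were above all caffeine and nicotine libraries, and above 3 of 4 saline libraries, with saline replicate 3 higher still. The adjusted p ran from 0.00017 to 0.11 over the alternatives. It missed the threshold with RLE scaling, with limma on FPKM, with the marker score as a covariate and when any 1 library was left out other than saline replicate 3, arecoline replicate 2 or caffeine replicate 3. It passed without the 4 libraries, where 10 of the 24 genes did, against 8.02% of all genes.

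Between compounds, Gad1 also had the lowest p of the 24 genes in both arecoline comparisons. Group means were 611 ± 67.6 CPM with arecoline, 307 ± 58.7 with nicotine and 319 ± 75.2 with caffeine (SD, n = 4). Arecoline exceeded nicotine by 0.99 ± 0.21 (log2, SE), with an adjusted p of 0.057 in edgeR (0.001 to 0.16 over 17 alternatives). Arecoline exceeded caffeine by 0.94 ± 0.21, with an adjusted p of 0.111 in edgeR (0.0041 to 0.43 over 17 alternatives). Neither passed the threshold, and both passed without the 4 libraries, at 0.86 and 0.93. Against saline (477 ± 172 CPM), the arecoline difference was 0.36 ± 0.21, with an adjusted p of 0.436 in edgeR (0.04 to 0.75 over 17 alternatives). It was 0.63 and passed once the 4 libraries were left out. The nicotine difference was -0.64 ± 0.21, with an adjusted p of 0.28 in edgeR (0.11 to 0.59 over 17 alternatives), and -0.24 without the 4 libraries.

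The ratio of Gad1 to Gad2 split the arecoline group. In FPKM it was 5.96 and 6.3 in arecoline replicates 1 and 4, against 1.95 and 1.87 in replicates 2 and 3. It was 1.78 to 2.78 with saline, 2.77 to 5.06 with caffeine and 3.11 to 3.84 with nicotine, a description with no test. In arecoline replicates 1 and 4, Gad1 was high while Gad2, Slc32a1 and Abat were below every saline library. Neuroblast markers were also highest in those libraries: the 6 summed to 396 and 263 CPM, against 77.3 to 177 CPM in every other library. Those libraries were the top pair for 5 of the 6 (not Dlx5), and none was at 0. Summed markers of Slc17a6 neurons were also highest there, at 398 and 330.4 CPM (at most 263 elsewhere). So were those of cerebellar granule cells, at 130 and 129 CPM (at most 105 elsewhere). In each list, however, those libraries were the top pair for only 2 of the 6 markers. Most of the sums came from Calb2 (315 and 246 CPM) and Etv1 (109.7 and 103 CPM), respectively. Of the 6 markers of each list, 0 and 2 were at 0 in any library. The part of these cells in the ratio was not tested.

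**Figure D2:**
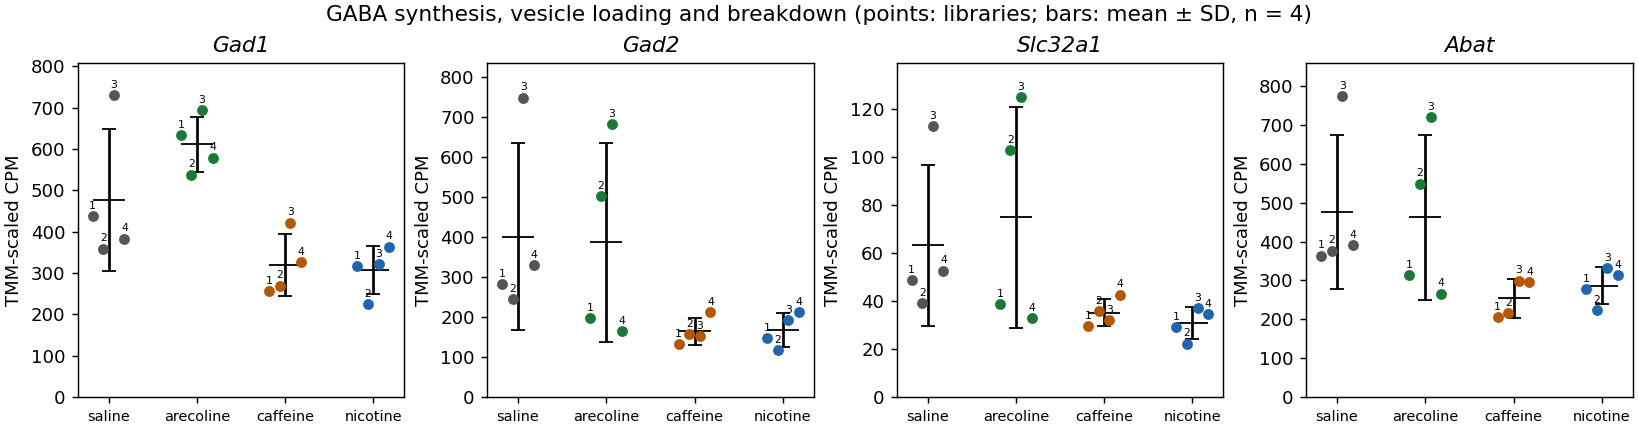
TMM-scaled CPM of Gad1, Gad2, Slc32a1 and Abat in each library (points, numbered by replicate), with the mean and SD of 4 libraries per group (bars). Saline replicate 3 and arecoline replicates 2 and 3 are high for Gad2, Slc32a1 and Abat, whereas all 4 arecoline libraries lie between 538 and 694 CPM for Gad1.

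The 2 plasma membrane transporters differed in how far they varied. Slc6a11, a GABA carrier of astrocytes, lay between 24.2 and 49.0 CPM over all libraries, with overlapping groups. Slc6a13, a carrier found in meninges and at the borders of the brain (chr6:121300227-121337733, plus strand), varied 34.1-fold, the most of the tested genes that had counts in every library. It had 29.5, 9.31, 24.8 and 3.65 CPM with saline, 2.45, 7.41, 3.93 and 2.66 with arecoline, 3.87, 2.95, 4.51 and 2.49 with caffeine and 3.54, 83.4, 3.16 and 3.77 with nicotine. Nicotine replicate 2 and saline replicates 1 and 3 were the highest, and every pair of groups overlapped. The 7 fibroblast and meningeal markers summed to 762 CPM in nicotine replicate 2 and to 173 and 247 CPM in saline replicates 1 and 3. Their sum was 47.1 to 762 CPM with nicotine, 76.8 to 247 with saline, 30.0 to 101 with arecoline and 28.6 to 111 with caffeine, with no marker at 0. Their part in the differences was not tested.

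The difference in Slc6a13 between caffeine and nicotine was -2.73 ± 0.95 (log2, SE), the lowest p of the 24 genes there, with an adjusted p of 0.493 in edgeR (0.29 to 1.0 over 17 alternatives). It was -0.01 without the 4 libraries, of which nicotine replicate 2 is 1. Against saline the arecoline difference was -2.03 ± 0.93, with an adjusted p of 0.306 in edgeR (0.03 to 0.49 over 17 alternatives), and it passed without the 4 libraries, at -2.46.

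**Figure D3:**
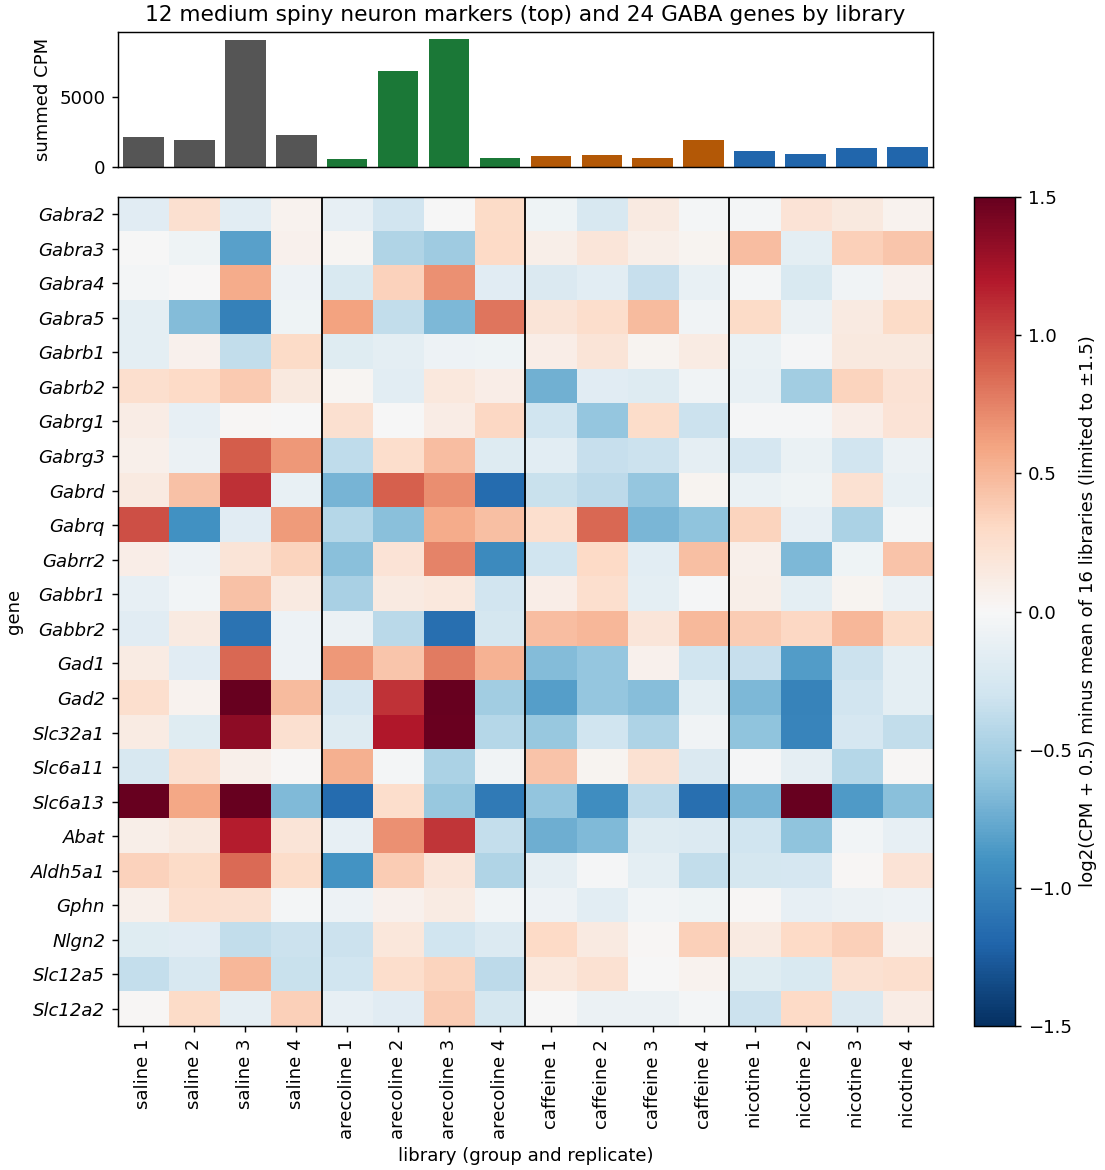
Each of the 24 tested genes by library, as log2(CPM + 0.5) minus the gene's mean over 16 libraries (colour, limited to ±1.5), below the summed CPM of 12 medium spiny neuron markers (bars, coloured by group). Saline replicate 3 and arecoline replicates 2 and 3 are red for Gad2, Slc32a1, Abat, Gabra4 and Gabrd and blue for Gabbr2, as their marker sums of 9117, 6889 and 9205 CPM stand above the others.

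Nlgn2, the adhesion molecule that gathers receptors at inhibitory synapses (chr11:69823122-69837784, minus strand), was the single gene of the 24 that passed the test with caffeine. It stood at 57.1, 57.5, 50.1 and 51.9 CPM with saline, at 51.9, 73.2, 52.6 and 56.2 with arecoline, at 80.1, 71.2, 65.5 and 83.1 with caffeine and at 71.4, 79.5, 83.0 and 68.4 with nicotine. All caffeine and nicotine libraries were above all saline libraries, and only 1 arecoline library, replicate 2, was above the saline range. From 54.2 ± 3.72 CPM with saline it rose to 75.0 ± 8.08 with caffeine (SD, n = 4), by 0.47 ± 0.12 (log2, SE; edgeR, adjusted p = 0.038). With nicotine the mean was 75.6 ± 6.82 CPM and the difference 0.48 ± 0.12, with an adjusted p of 0.206 in edgeR (0.036 to 0.4 over 17 alternatives), which did not pass.

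Summed cortical excitatory neuron and oligodendrocyte markers also separated the caffeine and nicotine libraries from the saline libraries. The 10 cortical excitatory neuron markers summed to 998 to 1181 CPM with caffeine and 913 to 1181 with nicotine, against 260.4 to 815 with saline and 391 to 834 with arecoline. The 10 oligodendrocyte markers summed to 3321 to 5404 CPM with caffeine and 3538 to 5794 with nicotine, against 7011 to 8132 with saline and 4321 to 9266 with arecoline. In arecoline replicates 1, 2 and 4 the oligodendrocyte sum (5928, 6537 and 4321 CPM) was below every saline library. Nlgn2 was above the saline range only in replicate 2 of these. No marker of either list was at 0, and their part in the level of Nlgn2 was not tested.

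The caffeine call held in 8 of 17 alternatives, with a log2 difference of 0.41 to 0.54 and an adjusted p of 0.0072 to 0.12. It was lost with limma on FPKM, with the marker score as a covariate, and when saline replicate 2, 3 or 4 or caffeine replicate 1, 2 or 4 was left out, where the adjusted p was 0.067 to 0.12. It held at 0.43 without the 4 libraries. Gphn, which encodes gephyrin, the scaffold beneath glycine and GABA-A receptors, varied least of the 24 genes, 1.33-fold. It had 85.3, 96.3, 96.1 and 79.6 CPM with saline and 76.5, 72.3, 79.0 and 77.3 with caffeine, just under the saline range. Arecoline libraries held 77.1 to 88.6 CPM and nicotine libraries 74.4 to 82.0. The arecoline difference was -0.12 ± 0.08 (log2, SE), with an adjusted p of 0.509 in edgeR (0.35 to 0.82 over 17 alternatives).

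The GABA-B subunits differed from each other. Gabbr1, which binds the ligand, had overlapping groups with 242 to 359 CPM under saline, 189 to 296 under arecoline, 238 to 316 under caffeine and 239 to 280 under nicotine. Gabbr2, which couples to the G protein (chr4:46662305-46991873, minus strand), had 65.9, 81.6, 34.2 and 70.2 CPM with saline and 69.9, 56.1, 33.5 and 61.8 with arecoline. Caffeine libraries held 102, 105, 84.5 and 104 CPM and nicotine libraries 96.8, 91.8, 105 and 90.4. Every caffeine and nicotine library was above every saline and arecoline library. Saline replicate 3 and arecoline replicate 3, high in medium spiny neuron markers, were the lowest of all, and the cortical excitatory neuron markers were lowest there too, at 260.4 and 391 CPM. Those markers had the same split by group as Gabbr2, since their sum was higher in every caffeine and nicotine library (913 to 1181 CPM) than in every saline and arecoline library (260.4 to 834). The part of cell composition in this difference was not tested.

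The caffeine difference in Gabbr2 was 0.65 ± 0.22 (log2, SE), with an adjusted p of 0.095 in edgeR (0.02 to 0.38 over 17 alternatives). The nicotine difference was 0.61 ± 0.22, with an adjusted p of 0.309 in edgeR (0.11 to 0.57 over 17 alternatives). Neither passed. Adding the marker score gave 0.35 and 0.39. Leaving out the 4 libraries gave 0.44, which passed, and 0.43, which did not. The Gabbr1 to Gabbr2 ratio in FPKM was 15.8 in saline replicate 3, 13.4 in arecoline replicate 3 and 8.17 in arecoline replicate 2, against 4.06 to 6.27 in the other 13 libraries.

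**Figure D4:**
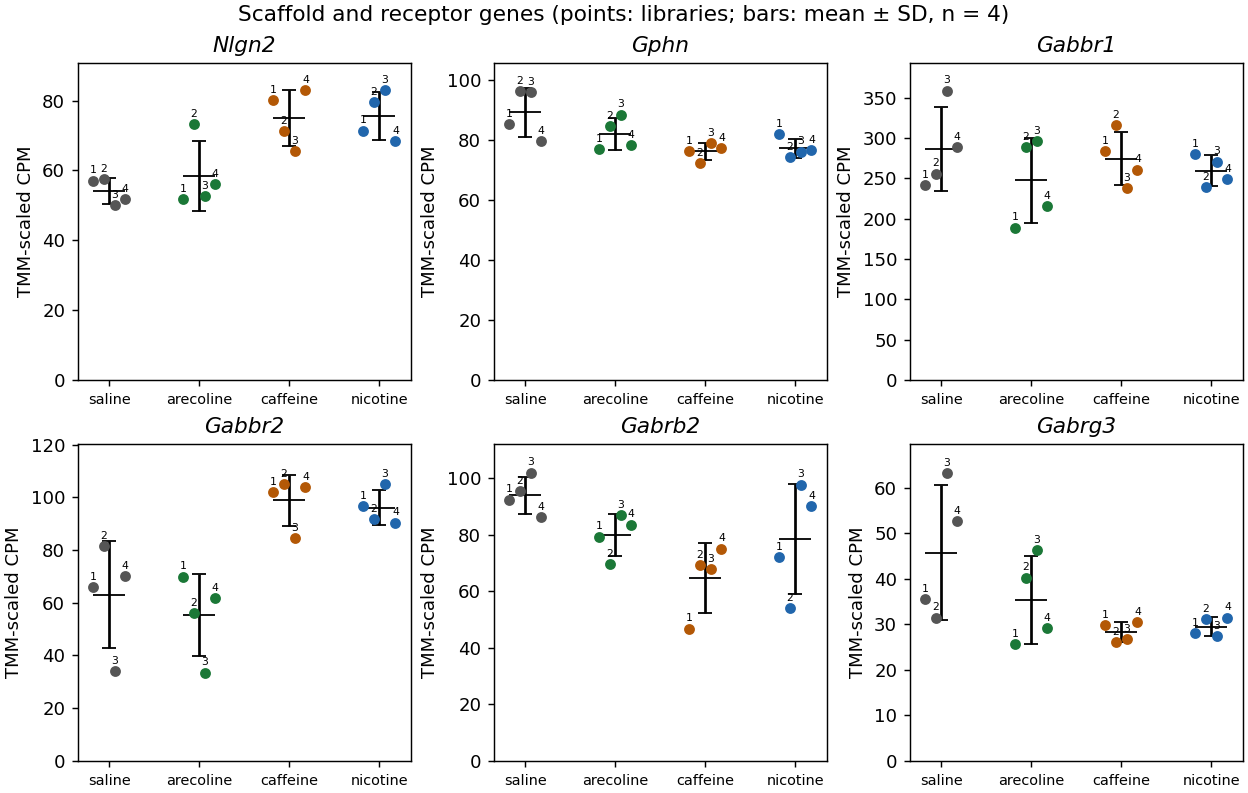
TMM-scaled CPM of Nlgn2, Gphn, Gabbr1, Gabbr2, Gabrb2 and Gabrg3 by library (points, numbered by replicate), with the mean and SD of 4 libraries per group (bars). Caffeine and nicotine libraries lie above saline for Nlgn2 and Gabbr2, and the caffeine libraries lie below saline for Gphn, Gabrb2 and Gabrg3.

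Among the receptor channel subunits edgeR called none in any of the 6 comparisons with all libraries, whereas DESeq2 called Gabrb2 and Gabrg3 lower with caffeine than with saline. Gabrb2, a beta subunit of synaptic receptors (chr11:42419757-42629028, plus strand), had 92.5, 95.6, 102 and 86.2 CPM with saline and 46.8, 69.2, 67.8 and 75.1 with caffeine, which did not overlap. Arecoline libraries held 69.6 to 87.0 CPM and nicotine libraries 54.0 to 97.8. The caffeine difference was -0.54 ± 0.17 (log2, SE), with an adjusted p of 0.072 in edgeR (0.028 to 0.23 over 17 alternatives), and it passed without the 4 libraries, at -0.50.

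Gabrg3, a less abundant gamma subunit (chr7:56716465-57387188, minus strand), had 35.5, 31.5, 63.2 and 52.7 CPM with saline, 25.7, 40.3, 46.3 and 29.2 with arecoline, 29.9, 26.2, 26.8 and 30.6 with caffeine and 28.1, 31.2, 27.4 and 31.5 with nicotine. Caffeine libraries were below all saline libraries, and the nicotine range reached the lowest saline value. The differences were -0.69 ± 0.20 with caffeine (log2, SE), with an adjusted p of 0.065 in edgeR (0.023 to 0.38 over 17 alternatives), and -0.63 ± 0.21 with nicotine, with an adjusted p of 0.268 in edgeR (0.13 to 0.56 over 17 alternatives). With the marker score as a covariate they were -0.28 and -0.32, and neither passed without the 4 libraries, at -0.49 and -0.46. With arecoline the difference was -0.37 ± 0.20, with an adjusted p of 0.395 in edgeR (0.1 to 0.7 over 17 alternatives).

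Gabra5, the alpha subunit of many extrasynaptic receptors (chr7:57407672-57510059, minus strand), split the arecoline libraries the other way from Gad2. It had 51.5, 36.2, 28.0 and 54.6 CPM with saline, 86.6, 44.1, 35.5 and 100.2 with arecoline, 65.4, 68.8, 79.3 and 54.9 with caffeine and 69.6, 53.6, 62.6 and 69.4 with nicotine. Caffeine lay just above the saline range, and arecoline replicates 1 and 4 were the highest of the 16. The arecoline difference was 0.65 ± 0.28 (log2, SE), with an adjusted p of 0.276 in edgeR (0.0062 to 0.6 over 17 alternatives). Without the 4 libraries it was 0.98 and passed, and with the marker score as a covariate it was 0.34. A gene on the opposite strand overlaps Gabra5 over 90368 bases, and since no source used here says whether counting kept the strand, reads of the overlapping stretch are uncertain. Gabra4 and Gabrb1, head to head on chromosome 5, overlap by 196 bases.

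The delta subunit Gabrd varied 4.81-fold, with 93.9, 116, 183 and 78.8 CPM under saline, 52.2, 159, 138 and 38.0 under arecoline, 67.5, 64.7, 56.9 and 88.0 under caffeine and 79.8, 81.2, 99.8 and 79.1 under nicotine. Its partner Gabra4 had 118 to 184 CPM with saline, 106 to 200.1 with arecoline, 98.1 to 115 with caffeine and 106 to 130.1 with nicotine. Both had their highest levels in the 3 libraries rich in medium spiny neuron markers, and the arecoline replicates 1 and 4 were the lowest of all for Gabrd. Over all libraries the arecoline difference of Gabrd against saline was -0.28 ± 0.36 (log2, SE), with an adjusted p of 0.745 in edgeR, a value named after it was seen. It was -1.09 and passed without the 4 libraries, where the 2 arecoline libraries kept held 605 and 622 CPM of medium spiny neuron markers and the saline libraries kept 1959 to 2305. Gabra3 ranged from 47.3 to 115 CPM, Gabra2 from 46.3 to 68.9, Gabrb1 from 124 to 197 and Gabrg1 from 30.7 to 57.6. Of these 4 genes, only Gabrb1 had groups that did not overlap, with arecoline at 142 to 154 CPM below caffeine at 166 to 184. Of the chloride transporters, Slc12a5 ranged from 253 to 469 CPM and Slc12a2 from 14.0 to 23.0, with overlapping groups for both.

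Read over the set, 1 of the 24 tested genes was called with caffeine, where 4.08% of all genes were called, and 13 had an unadjusted p under 0.05, against 24.6% of all genes. Of the 24, 10 did not overlap between caffeine and saline, against 16% of all genes. Higher with caffeine were Nlgn2, Gabbr2 and Gabra5 (3 genes, against 8.22% of all genes), and lower were Gabra4, Gabrb2, Gabrg3, Gad2, Abat, Aldh5a1 and Gphn (7 genes, against 7.82%). The median log2 fold change of the 24 was -0.22, against -0.02 over all tested genes, with 17 below 0.

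With nicotine no gene of the 24 was called in edgeR, where 0.0% of all genes were called; 10 had an unadjusted p under 0.05, against 12.2% of all genes, and DESeq2 called 1, Nlgn2. Of the 24, 6 did not overlap with saline, against 6.83% of all genes: Nlgn2 and Gabbr2 were higher and Gad2, Slc32a1, Abat and Aldh5a1 lower. The median log2 fold change was -0.18, against 0.02 over all genes, with 15 of the 24 below 0. With arecoline none of the 24 was called in edgeR, where 0.0136% of all genes were called. Of these, 3 had an unadjusted p under 0.05, against 15.7% of all genes, DESeq2 called 0, and 0 did not overlap with saline, against 7.02% of all genes. The median was -0.07, against 0.0 over all genes, with 15 of the 24 below 0.

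The comparisons with saline share its 4 libraries, so their values are set side by side without a measure of likeness. Saline replicate 3 was the highest saline library for 11 of the 24 genes, against 28.6% of all genes, and the lowest for 6, against 31.2%. The 3 libraries rich in medium spiny neuron markers were the top 3 of 16 for 6 genes (Gabra4, Gabrd, Gad2, Slc32a1, Abat and Slc12a5), against 5.0% of all genes. They were the lowest 3 for Gabra3 and Gabbr2, against 3.67%.

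**Figure D5:**
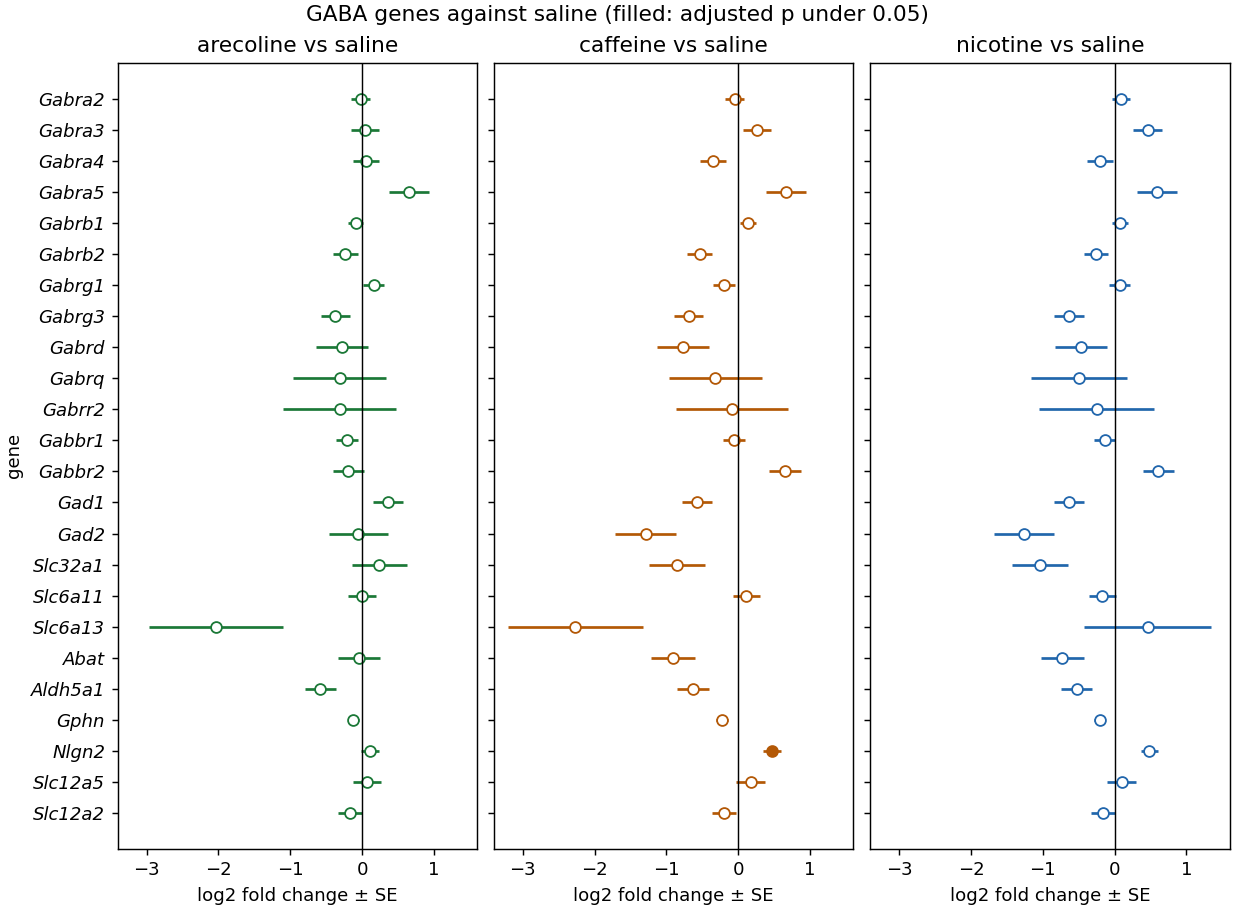
Log2 fold change and SE of the 24 tested genes for arecoline, caffeine and nicotine against the shared saline libraries; a filled point has an adjusted p under 0.05. Only Nlgn2 with caffeine is filled, at 0.47, and Slc6a13 has wide errors in all 3 comparisons.

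Between compounds no gene of the 24 was called in edgeR. Arecoline against nicotine called 0.0886% of all genes, and 7 of the 24 had an unadjusted p under 0.05, against 18.2%. Gad1 was higher and Gabbr2 lower with no overlap, 2 genes against 8.97% of all genes, and DESeq2 called both. Arecoline against caffeine called 0.0% of all genes in edgeR, and 8 of the 24 had an unadjusted p under 0.05, against 15.8%. There Gad1 was higher and Gabbr2 and Gabrb1 lower with no overlap, 3 genes against 9.18%, and DESeq2 called Gad1 and Gabbr2. Caffeine against nicotine called 0.0% of all genes in edgeR, with 1 of the 24 at an unadjusted p under 0.05, against 9.3%, and 0 by DESeq2. No gene of the 24 was without overlap there, against 6.11% of all genes.

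Without the 4 libraries, edgeR called 5 of the 24 genes with arecoline against saline, where 6.39% of all genes were called. Gabra5 (0.98) and Gad1 (0.63) were higher, and Gabrd (-1.09), Aldh5a1 (-0.97) and Slc6a13 (-2.46) lower, as log2 differences. It called 9 with caffeine, against 10.0% of all genes, of which Nlgn2 (0.43), Gabbr2 (0.44), Gabra5 (0.50) and Slc12a5 (0.42) were higher. Gad2 (-0.80), Abat (-0.58), Aldh5a1 (-0.48), Gabrb2 (-0.50) and Slc6a13 (-2.03) were lower. With nicotine it called 0, against 0.322% of all genes. Between compounds it called Gad1 higher and Gabbr2 and Gabrd lower with arecoline than with nicotine, 3 genes against 1.87%. For Gabrd this reversed the direction, from 0.19 ± 0.36 (log2, SE) with all libraries to -0.93. It called Gad1 higher and Gabbr2 lower with arecoline than with caffeine, 2 genes against 0.577%, and 0 between caffeine and nicotine, against 0.0%. The libraries left out were singled out by their cell type markers, which move with several of these genes. The 2 arecoline libraries kept held 605 and 622 CPM of medium spiny neuron markers, against 1959 to 2305 in the saline libraries kept. Their neuroblast markers summed to 396 and 263 CPM, against 77.3 to 158 in those saline libraries. The part of these differences in the arecoline calls was not tested. The caffeine libraries, all of them kept, held 668 to 1911 CPM of medium spiny neuron markers, below every saline library kept. The part of that difference in the caffeine calls was not tested.

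Other genes of GABA transmission were taken from a list of 40, of which 39 were in the table and 37 tested. The list holds receptor trafficking and anchoring proteins, GABA-B auxiliary subunits and potassium channels, kinases that act on chloride transporters, and glutamine handling. With caffeine 2 of the 37 passed in edgeR, where 4.08% of all genes did. Slc38a3, a glutamine transporter of astrocytes, was at 89.4 ± 17.6 CPM with saline and fell to 48.8 ± 9.97 with caffeine (SD, n = 4), which is -0.87 ± 0.18 on the log2 scale (SE; adjusted p of 0.021 in edgeR). Kcnj9, a subunit of the potassium channels that GABA-B receptors open, was at 66.3 ± 13.2 CPM with saline and rose to 122 ± 5.46 with caffeine, which is 0.88 ± 0.19 on the log2 scale (adjusted p of 0.024 in edgeR). With nicotine Kcnj9 was also above the saline maximum of 78.6 CPM, at 86.8 to 136, and with arecoline it ranged from 59.3 to 112. The 10 astrocyte markers summed to 4486 to 6079.5 CPM with saline and to 3213 to 4842 CPM with caffeine, none of them at 0, and their part in the level of Slc38a3 was not tested. The cortical excitatory neuron markers were also higher with caffeine (998 to 1181 CPM) and nicotine (913 to 1181) than with saline (260.4 to 815). With arecoline they summed to 391 to 834 CPM, and their part in the level of Kcnj9 was not tested. None of the 37 passed in the other 5 comparisons, and Slc38a3 differed among the 4 groups (edgeR, adjusted p = 0.048). At an unadjusted p under 0.05 against saline there were 6 of the 37 with arecoline, where 15.7% of all genes were, 11 with caffeine (24.6%) and 6 with nicotine (12.2%).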

How the data were processed

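Polyadenylated RNA was primed with oligo-dT, copied with template switching and sequenced on an Illumina instrument, per the labels' protocols. RSEM, StringTie 1.3.1, HISAT2, Bowtie2 2.2.8, fastp 0.18.0 and the mm10 build are named in the submitters' processing notes. The authors deposited estimated counts per gene, unscaled, and FPKM, scaled to transcript length and library total, for each of 16 libraries. No source used here says whether counting kept the strand. Names and gene coordinates came from GENCODE M21 (GRCm38), which matched 22232 of 22337 rows, and promoters from RefSeq (GRCm38.p6).

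Estimated counts were rounded, filtered with filterByExpr, scaled by TMM and tested in edgeR 4.0.16 (R 4.3.3), with quasi-likelihood, a mean for each group, all 16 libraries and Benjamini-Hochberg adjustment over 14674 genes. Alternatives were RLE scaling, no filter, DESeq2 1.42.0, limma 3.58.1 on log2(FPKM + 1) and log2(FPKM + 0.1), a replicate block, 2-group fits and leaving out each library. A medium spiny neuron marker score as covariate and leaving out 4 libraries were added after seeing the data. All 27 genes are accounted for. Fold changes with p are given against saline for genes past the threshold or, where fewer than 6 passed, the 6 with the lowest p, and between compounds for the 1 with the lowest p. The genes, lists and rules were chosen with earlier results of these data known. Libraries of a group were checked for duplicates (lowest chi-square per degree of freedom 11.9), and the steps were tested on simulated data.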

Additional observations from a re-analysis of the deposited data

Results flagged for a closer look

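Of 96 groups of 4 libraries (24 genes in 4 groups), 8 held a library far from the others by Dixon's test, 8.33%, where chance flags about 1 in 20. Saline replicate 3 accounted for 5 of them, all high: Gad2 at 749 CPM (others 245 to 329), Abat at 775 (364 to 391), Gabra4 at 184 (118 to 125), Slc12a5 at 469 (258 to 279.6) and Aldh5a1 at 92.3 (61.9 to 64.9). Medium spiny neuron markers summed to 9117 CPM in that library and to 1959 to 2305 CPM in the other saline libraries, and their part in these levels was not tested. Slc6a13 stood at 83.4 CPM in nicotine replicate 2 (others 3.16 to 3.77), where fibroblast and meningeal markers summed to 762 CPM (others of the group 47.1 to 70.4). Gabbr2 was low in caffeine replicate 3 at 84.5 CPM (others 102 to 105). Gabrd was high in nicotine replicate 3 at 99.8 CPM (others 79.1 to 81.2).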

How the results depend on the processing

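None of the 21 fold changes printed with a p by the naming rule changed its direction under any alternative run. Gabrd, which is not among them for arecoline against nicotine, went from 0.19 to -0.93 without the 4 libraries that stand apart. Genes called in edgeR, in the order arecoline, caffeine and nicotine against saline, arecoline against nicotine, arecoline against caffeine, caffeine against nicotine and any difference, were 2, 599, 0, 13, 0, 0 and 167. DESeq2 called 458, 1497, 107, 609, 380, 5 and 1667. Without the 4 libraries that stand apart the counts were 952, 1490, 48, 279, 86, 0 and 1194. The marker score as covariate moved arecoline to 34, caffeine to 45, arecoline against nicotine to 143 and any difference to 77. Fits to the 2 groups alone moved arecoline to 0 and arecoline against nicotine to 3, and limma moved any difference to 18 with a pseudocount of 1 and to 30 with 0.1. The cause was not tested.

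Of the 24 GABA genes, the number called with caffeine moved from 1 to 4 with DESeq2, 5 in the 2-group fit, 9 without the 4 libraries and 0 with limma (either pseudocount) and with the marker score. For arecoline it moved from 0 to 5 without the 4 libraries, and for nicotine from 0 to 1 with DESeq2. Arecoline against nicotine moved from 0 to 2 with DESeq2 and with the marker score and to 3 without the 4 libraries, and arecoline against caffeine to 2 with DESeq2 and without the 4 libraries. Any difference moved from 1 to 5 with DESeq2, 10 without the 4 libraries and 0 with RLE, limma and the marker score.

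With 1 library left out, genes called ran from 0 to 198 for arecoline, 23 to 995 for caffeine, 0 to 4 for nicotine, 2 to 298 for arecoline against nicotine, 0 to 67 for arecoline against caffeine, 0 to 0 for caffeine against nicotine and 1 to 351 for any difference. GABA genes called ran from 0 to 2 for caffeine, for arecoline against nicotine and for any difference, and from 0 to 0 elsewhere. The lowest caffeine counts came from leaving out caffeine replicate 1 (23), caffeine replicate 2 (49), saline replicate 2 (57) or saline replicate 3 (350), and the highest from leaving out saline replicate 1 (995).

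Whether the replicate numbers pair the libraries could not be settled. Same-numbered deviations from the group means correlated at -0.13 to 0.49 for arecoline and saline and 0 to 0.11 for caffeine and saline. The range was -0.06 to 0.2 for nicotine and saline and 0.01 to 0.2 for arecoline and nicotine. It was -0.28 to 0.03 for arecoline and caffeine and -0.07 to 0.16 for caffeine and nicotine. At most 4 of 8 libraries correlated best with their own number. With a replicate block, genes called were 102, 997, 2, 219, 37 and 426 for arecoline, caffeine and nicotine against saline, arecoline against nicotine, arecoline against caffeine and any difference, with 5 GABA genes for caffeine, 2 for arecoline against nicotine, 1 for arecoline against caffeine and 2 for any difference. Gabra6, Gabre, Gabrr1 and Gabrr2, with group means under 1 CPM, rest on few counts, at most 17 in any library.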
